A study of Mus musculus with 201 samples.

Results

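The genes described here mark the fields of pyramidal neurons in the mouse hippocampus. The 8 members are Wfs1, Fibcd1, Man1a and Mpped1, which mark field CA1, Rgs14 and Amigo2, which mark field CA2, Bok, which marks field CA3, and Etv1, a transcription factor of the ETS family. All probe sets annotated to these symbols were taken, which gave 12 of the 45037 probe sets tested. Of the 12, 9 carry a single symbol, and all 3 probe sets of Etv1 are annotated to both Gm5454 and Etv1. These 3 are given below as Gm5454/Etv1, since their signal cannot be assigned to either gene.

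Pyramidal neurons are the excitatory principal cells of the hippocampus, and they form a continuous layer that is divided into CA1, CA2 and CA3. CA3 neurons receive the mossy fibres of dentate granule cells and project to CA1, CA1 is the main output field, and CA2 is a small field between them that is known for its role in social memory. Each field expresses its own set of genes, so field markers are widely used to tell the fields apart in tissue sections.

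Expression was measured on 201 Affymetrix M430 2.0 arrays of whole hippocampus from 100 mouse strains, with each array holding pooled RNA of 1 to 4 mice aged 41 to 196 days. The strains were 68 BXD recombinant inbred strains (134 arrays), which descend from C57BL/6J and DBA/2J, 13 CXB recombinant inbred strains (27 arrays), which descend from BALB/cByJ and C57BL/6ByJ, the reciprocal hybrids B6D2F1 and D2B6F1 (6 arrays), 4 wild-derived strains (CAST/EiJ, PWD/PhJ, PWK/PhJ and WSB/EiJ, 7 arrays) and 13 classical inbred strains (27 arrays). CAST/EiJ and BALB/cByJ had 1 array each. Most strains had a female and a male pool, which hold different animals, and 1 B6D2F1 array is labelled a technical duplicate. For pools labelled with 1 sex, as in KK/HIJ, the labels leave it unsaid whether animals were shared. The dissections may hold variable amounts of subiculum and fimbria.

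Values are deposited PDNN scores, a log-like scale of unstated base, so results are levels and differences in PDNN units and not fold changes. Each strain received a fitted value from limma, adjusted for sex and batch, and a result is called at a Benjamini-Hochberg adjusted p under 0.05, taken across the full set of 45037. For 7 arrays the deposited header and the label disagreed, 4 of them on strain, 3 on sex and 1 on batch. Labels were used throughout. Among the 7 are both BXD14 arrays, headed BXD23, a PWD/PhJ array headed PWK/PhJ and a D2B6F1 array headed DBA/2J. A KK/HIJ array has another sex in its header than in its label. The BXD9 array of mixed sex, also among the 7, was left out of the fits. The β-actin 3′/5′ ratio, a measure of RNA quality that is higher in degraded RNA, ran from 1.32 to 4.65 (median 2.32) in wild-derived strains and from 1.13 to 3.71 (median 1.67) in classical strains, against medians of 1.31 in BXD and 1.32 in CXB strains. In whole tissue, fewer cells of a type and less RNA per cell cannot be told apart.

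Most member probe sets were well above the middle of the array. Means over 201 arrays were 9.58 for Wfs1, which encodes wolframin, a membrane protein of the endoplasmic reticulum, and 9.35 for Rgs14, a scaffold that regulates G protein signalling. Probe set 1417111_at of Man1a, a Golgi mannosidase that trims N-linked glycans, averaged 9.33 and its probe set 1417110_at 8.72. Mpped1, a metallophosphoesterase domain protein, averaged 9.22, Bok, a member of the BCL-2 family of cell death regulators, 8.97, and Fibcd1, a transmembrane receptor that binds acetylated sugars, 8.70. Amigo2, an adhesion molecule with leucine-rich repeats, averaged 8.17 in probe set 1434601_at and 7.90 in 1447769_x_at. The median probe set averaged 7.86, and of the 12 only the Gm5454/Etv1 probe set 1445314_at (7.51) lay below it, against 8.91 in 1450684_at and 8.80 in 1422607_at. These levels come from different probe sets and do not rank the genes against each other.

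**Figure D1:**
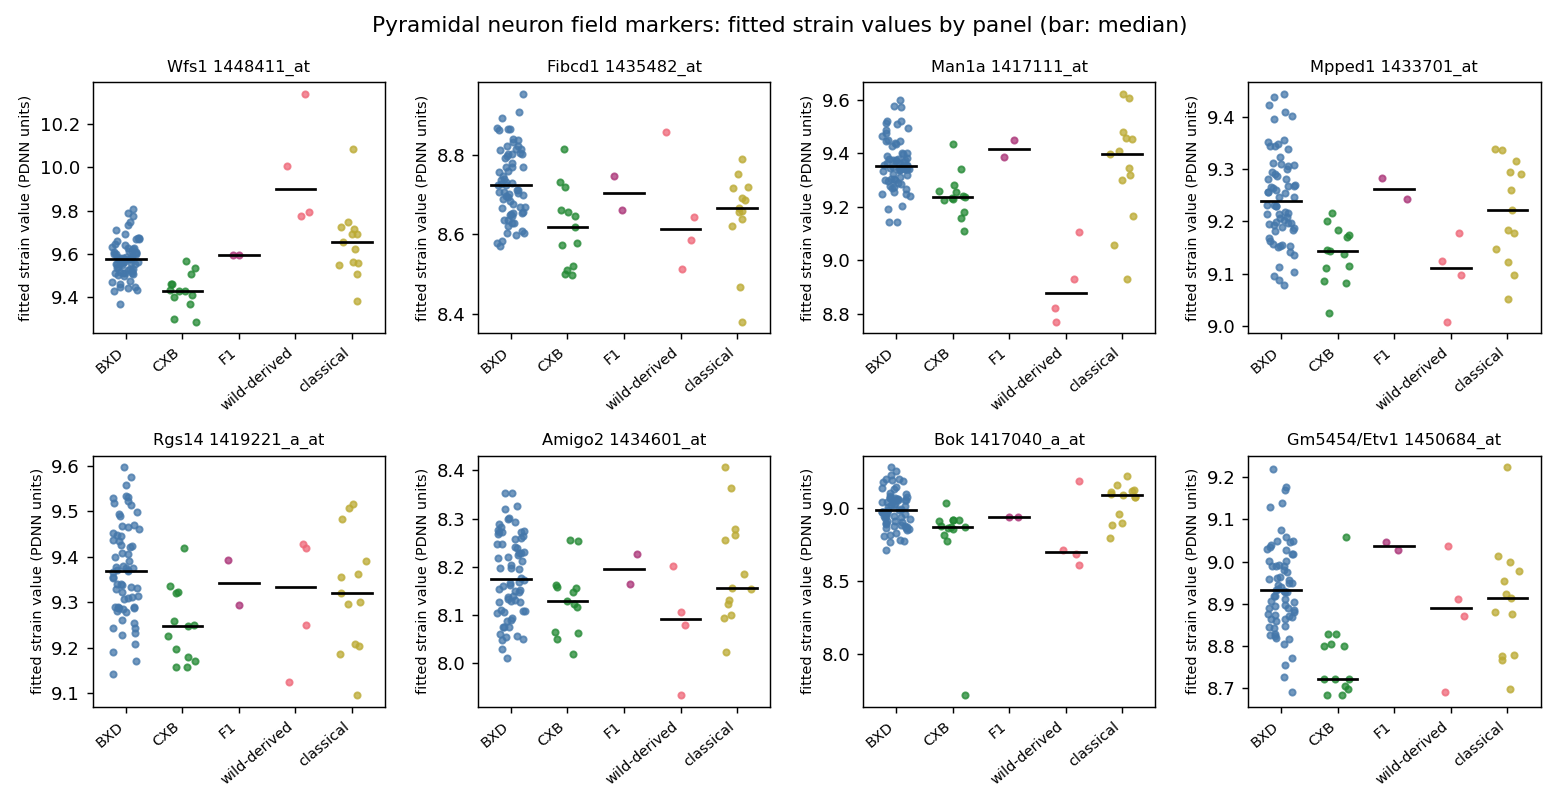
Fitted strain values (PDNN units, y axis) of the brightest probe set of each gene, by panel (x axis), with each point 1 strain and the bar the median of the panel. The 13 CXB strains of Bok hold 1 strain at 7.71, and the 4 wild-derived strains lie between 8.77 and 9.11 for Man1a.

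Bok, the CA3 marker, was low in a single recombinant strain. The female CXB10 pool read 7.78 and the male CXB10 pool 7.74, against 8.82 to 9.16 (median 8.95) in the 25 arrays of the other 12 CXB strains. No other array of the series was below 8.49, the value of a PWK/PhJ array. Both CXB10 arrays were thus below all 199 others, and they came from different sexes and batches. The fitted value of CXB10 was 7.71, which was 1.16 units below the median of the other 12 CXB strains, whose SD was 0.0650.

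Both parental strains were high. Bok read 9.09 in the BALB/cByJ array, and 8.93 and 8.85 in the C57BL/6ByJ arrays, so CXB10 lay outside the range of its parents. The same departure appeared in the other summaries of these arrays. In the MAS5 table Bok read 7.44 and 8.14 in CXB10, against 10.18 to 11.01 in the other CXB arrays, and in the RMA table it read 9.84 and 9.81, against 11.1 to 11.7.

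**Figure D2:**
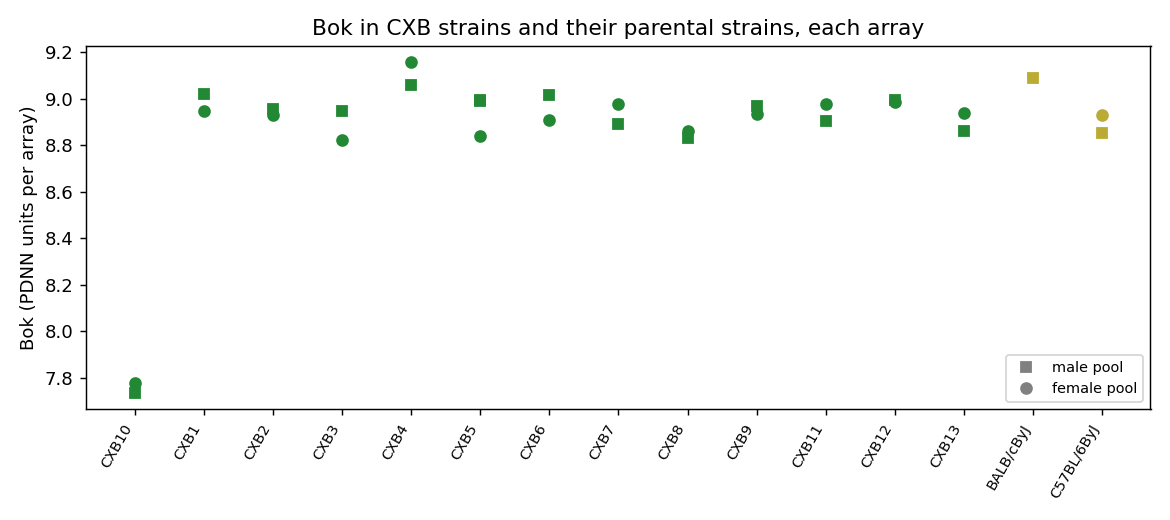
Bok in each array (y axis, PDNN units) of the 13 CXB strains, with CXB10 at the left, and of the parental strains BALB/cByJ and C57BL/6ByJ at the right. Squares are male pools and circles female pools, and both CXB10 pools lie below 7.8 while the other CXB pools lie above 8.8.

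Across CXB strains, Bok was the single member called (limma F = 27.9, adjusted p = 4.59e-23), where 4.2% of all probe sets were called. The call rested on CXB10: without that strain, a choice made after seeing the data, F was 1.13 and the adjusted p 0.614. The other 11 member probe sets had adjusted p-values of 0.381 or more. In CXB10 some of them lay just outside the range of the other CXB arrays. Wfs1 read 9.53 and 9.63 in CXB10, against 9.24 to 9.56, and Gm5454/Etv1 1422607_at read 8.35 and 9.19, against 8.41 to 9.22. The male pool of Fibcd1 (8.426 against a lowest value of 8.427) and of Gm5454/Etv1 1450684_at (9.083 against a highest value of 9.081) also passed the range. Rgs14 read 9.34 and 9.18 in CXB10, against 9.13 to 9.49 in the other CXB arrays, and Amigo2 (1434601_at) read 8.11 and 8.27, against 7.96 to 8.31.

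Marker lists of the fields were also read in CXB10. The mean fitted level of 7 further CA3 markers was 8.42 in CXB10, against 8.37 to 8.52 in the other CXB strains, and that of 8 dentate granule markers was 8.40, against 8.33 to 8.66. The oligodendrocyte list was lower, at 10.07 in CXB10 against 10.14 to 10.45 in the others, and the part of this difference in the level of Bok was not tested.

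The neighbours of Bok on chromosome 1 were set beside it, in the gene order of GRCm38.p6. Of the 10 protein-coding genes on each side, 16 had a probe set. Farp2, 2 genes before Bok, differed by 0.0116 units between CXB10 and the median of the other CXB strains, and Thap4, the next gene after Bok, by 0.0319. Stk25, which encodes a kinase and lies directly beside Bok, was lower in CXB10 by the same measure (-1.30). Low Stk25 was not peculiar to that strain, since fitted values were also 8.03 in CXB6, 8.12 in CXB7, 8.26 in CXB13 and 8.35 in CXB4, where Bok read 8.86 to 9.04. Of the 16 neighbours, the remaining 15 differed by no more than 0.0951 units in size.

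CXB10 had 16 probe sets at least 1 unit below the median of the other strains and 2 at least 1 unit above it. The same count for the other 12 CXB strains ran from 1 to 13 below and from 1 to 18 above, and CXB7, with 13 and 18, departed at more probe sets than CXB10. The lowest in CXB10 were both probe sets of Cap1 (-1.93 and -1.77), and Bok was the 10th lowest.

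Bok also varied among the BXD strains. Fitted values ran from 8.71 in BXD9 to 9.28 in BXD76, around a mean of 9.00 ± 0.126 (SD, n = 68 strains). BXD76 read 9.27 in its female pool and 9.20 in its male pool. BXD9 read 8.74 in its female pool, and the BXD9 pool of mixed sex, which was not in the fit, read 8.73. The strain effect was called (limma F = 3.66, adjusted p = 1.50e-07). The intraclass correlation, the share of variance that lies between strains, was 0.580, against a median of 0.0601 over all probe sets. Here and below it comes from a fit to BXD arrays alone, while F and adjusted p come from the fit to all panels.

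Amigo2 was the other member called in the BXD panel. Its probe set 1434601_at ran from 8.01 in BXD45 to 8.35 in BXD76, with an F of 1.98, a limma adjusted p of 0.0177 and an intraclass correlation of 0.411. The call was lost in 3 of 31 alternatives: the MAS5 table (adjusted p = 0.0998), no batch term (0.0561) and leaving out arrays of high outlier share (0.0501). Its second probe set, 1447769_x_at, was not called (adjusted p = 1), and over 68 BXD strains the fitted values of the 2 probe sets correlated at only r = 0.227. Of the 12 member probe sets, 2 were called, beside 6.95% of all probe sets.

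Of the members that were not called, Mpped1 came closest (limma adjusted p = 0.0978), with fitted values from 9.08 in BXD64 to 9.44 in BXD45. Both BXD45 pools were high, at 9.47 and 9.48. Wfs1 ran from 9.37 in BXD39 to 9.81 in BXD62 (adjusted p = 0.356), but the 2 BXD39 pools read 9.21 and 9.48. Rgs14 ran from 9.14 to 9.60 (adjusted p = 0.599) with an intraclass correlation of 0.408. With the spread taken from BXD arrays alone, a choice made after seeing the data, 5 member probe sets and 8.38% of all probe sets were called, among them Rgs14 (adjusted p = 0.00477) and Wfs1 (adjusted p = 0.0415).

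The promoters of Bok and Amigo2, the members called across BXD strains, are shown as the sequence context of those members. They are 300-base RefSeq windows of GRCm38.p6 around the gene's start, 5′ to 3′ on the gene's strand. Capitals mark GC boxes (GGGCGG on either strand).
Bok, chr1:93685325-93685624, plus strand: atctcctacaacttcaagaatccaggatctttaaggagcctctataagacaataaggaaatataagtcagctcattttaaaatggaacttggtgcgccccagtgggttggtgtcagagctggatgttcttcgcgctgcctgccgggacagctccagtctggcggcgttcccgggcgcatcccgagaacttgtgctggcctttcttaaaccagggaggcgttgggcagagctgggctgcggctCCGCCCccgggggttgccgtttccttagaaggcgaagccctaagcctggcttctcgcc
Amigo2, chr15:97247238-97247537, minus strand: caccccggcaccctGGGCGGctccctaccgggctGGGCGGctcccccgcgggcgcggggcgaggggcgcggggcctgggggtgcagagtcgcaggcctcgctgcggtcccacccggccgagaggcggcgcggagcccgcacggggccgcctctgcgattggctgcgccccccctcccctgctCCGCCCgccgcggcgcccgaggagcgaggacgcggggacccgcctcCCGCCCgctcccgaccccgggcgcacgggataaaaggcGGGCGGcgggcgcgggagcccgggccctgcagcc

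The Bok window holds 1 GC box and the Amigo2 window 5, and 35.7% of 32851 promoter windows of the same length hold at least 1. Neither window holds an E-box (CANNTG, either strand), which 72.3% of the windows do. These letters describe the reference sequence, and the strains were not compared at them.

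The parents of the BXD panel differed in Bok. It read 8.90 and 8.69 in the DBA/2J arrays, against 8.93, 9.30 and 8.93 in the C57BL/6J arrays, with no overlap, although the highest DBA/2J array lay close to the lowest C57BL/6J array. The difference was -0.292 ± 0.0817 (SE, limma adjusted p = 0.0125), and Bok was the single member called, where 7.24% of all probe sets were called (2.63% as lower and 4.61% as higher). The call depended on single arrays: it was lost without C57BL/6J replicate 2 (-0.192, adjusted p = 0.219) and without DBA/2J replicate 2 (-0.203, adjusted p = 0.337). Both DBA/2J arrays are of females. Of 6 oligodendrocyte markers, 5 were called as lower in DBA/2J, with a list mean of 9.57 in DBA/2J and 10.2 in C57BL/6J, and their part in the Bok difference was not tested.

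Man1a differed as much in size but was not called. Probe set 1417110_at read 8.58 and 8.98 in DBA/2J, against 8.49, 8.67 and 8.37 in C57BL/6J, and the groups overlapped (0.319 ± 0.125, SE, limma adjusted p = 0.121). Fitted Bok values were 8.94 in both B6D2F1 and D2B6F1, and the hybrids differed from the mid-parent by -0.00455 units (95% interval -0.118 to 0.109). No member was called in the hybrids by limma, with 1 of 12 at an unadjusted p under 0.05, and 0% of all probe sets were called.

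BALB/cByJ has 1 array, so the test against C57BL/6ByJ assumes that it varies as the other strains do. No member was called either, with 1 of 12 at an unadjusted p under 0.05 and 1.19% of all probe sets called (0.58% as higher and 0.608% as lower). That member was Man1a 1417111_at, which read 9.51 in BALB/cByJ, against 9.22 and 9.04 in C57BL/6ByJ (0.397 ± 0.148, SE, limma adjusted p = 0.248).

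Among the 17 inbred strains, 10 of 12 member probe sets were called, beside 43.5% of all probe sets. With the spread taken from these arrays alone, a choice made after seeing the data, 5 of 12 and 10.7% of all probe sets were called: Wfs1, both Man1a probe sets, Bok and Gm5454/Etv1 1445314_at. Fibcd1 (limma adjusted p = 0.0493) and Rgs14 (0.0138) were lost in that setting. Array deviations from the fit correlated with the log2 β-actin ratio (199 columns) at r = -0.299 for Fibcd1 and -0.238 for Rgs14, but also at -0.290 and 0.240 for the dimmer and brighter Man1a probe sets, which kept their calls, and at 0.493 for Gm5454/Etv1 1450684_at, which did not. With that ratio as a covariate, the adjusted p of Fibcd1 was 0.279.

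Wfs1 was highest in CAST/EiJ, at 10.3 in its 1 array. It read 10.1 and 10.0 in 129S1/SvImJ and 10.1 and 9.93 in WSB/EiJ. These 3 strains held the highest fitted values, although a BALB/cJ array, at 9.94, reached the lower WSB/EiJ array. The other classical strains had fitted values from 9.38 in BALB/cByJ to 9.75 in BALB/cJ. The strain effect had an F of 7.07 and a limma adjusted p of 4.12e-09.

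**Figure D3:**
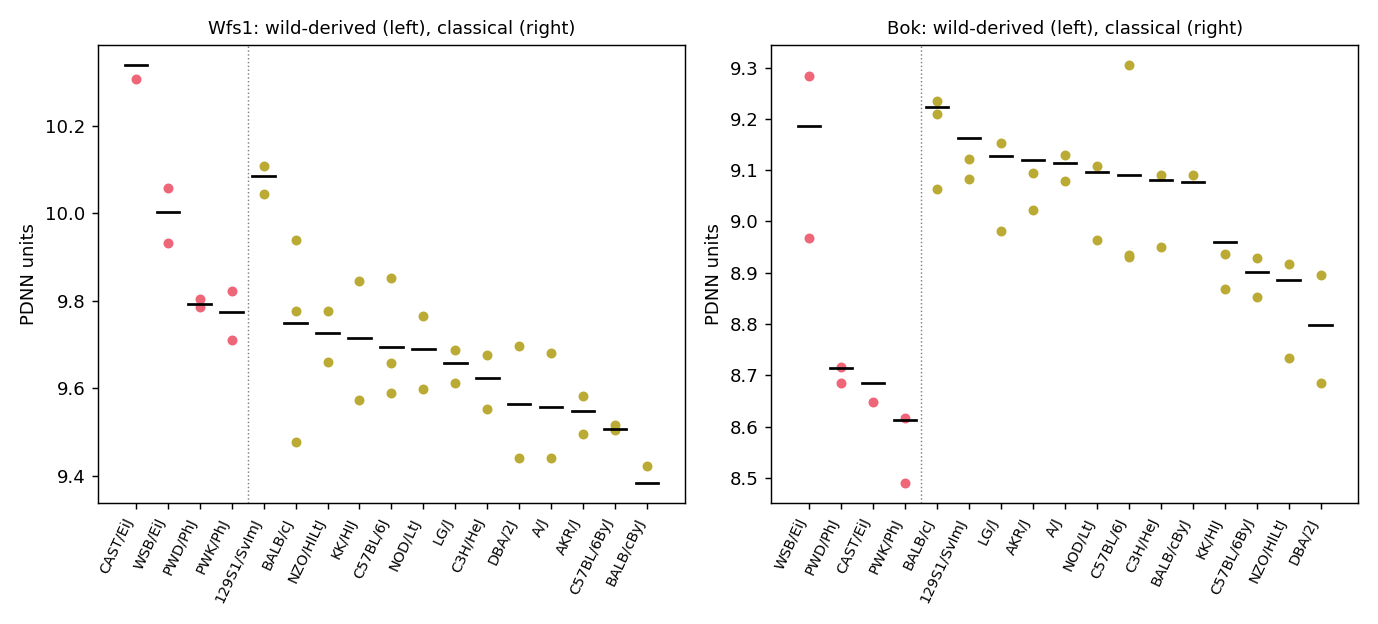
Wfs1 (left) and Bok (right) in each array of the 17 inbred strains (y axes, PDNN units), with wild-derived strains left of the dotted line and classical strains right of it. Points are arrays and bars fitted strain values, and Wfs1 is highest in CAST/EiJ, while Bok is lowest in PWK/PhJ.

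Bok split the wild-derived strains. It read 8.69 and 8.72 in PWD/PhJ, 8.65 in CAST/EiJ, and 8.62 and 8.49 in PWK/PhJ, but 9.28 and 8.97 in WSB/EiJ. The fitted value was 9.19 in WSB/EiJ and 8.61 to 8.72 in the other 3 strains. The oligodendrocyte list was also highest in WSB/EiJ, at 9.87, against 9.65 to 9.69 in the other 3 and a classical median of 10.15, and its part in the level of Bok was not tested. Among classical strains Bok ran from 8.80 in DBA/2J to 9.22 in BALB/cJ.

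Man1a was lower in wild-derived strains by its brighter probe set. Fitted values of 1417111_at were 8.77 in PWD/PhJ, 8.82 in CAST/EiJ, 8.93 in PWK/PhJ and 9.11 in WSB/EiJ, against 8.93 to 9.62 (median 9.40) in the 13 classical strains. The difference was -0.441 ± 0.102 (SE, limma on strain values, adjusted p = 0.0251), the single member called, beside 3.9% of all probe sets (1.99% as lower and 1.92% as higher). It was lost without CAST/EiJ (adjusted p = 0.0843) and without PWD/PhJ (0.126), and in the RMA table (0.205). Without the arrays whose headers disagree with their labels, a setting added after seeing the data, the adjusted p was 0.0306. The astrocyte list averaged 9.42 to 9.50 in wild-derived strains and 9.60 to 9.91 in classical strains. The list of other CA1 markers went the other way, with a median of 9.33 in wild-derived and 9.18 in classical strains. The part of either list in the Man1a difference was not tested. Wfs1 was 0.324 ± 0.101 units apart (SE, adjusted p = 0.0723), with the wild-derived strains higher.

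The second Man1a probe set gave another picture. By 1417110_at the wild-derived strains had fitted values of 8.39 to 8.88, within the range of the classical strains but for CAST/EiJ (-0.175 ± 0.121, SE, limma adjusted p = 0.368). KK/HIJ was opposite at the 2 probe sets. It read 9.65 and 9.33 at 1417110_at, where no other strain had a fitted value above 8.93, and 8.82 and 9.08 at 1417111_at, where its fitted value of 8.93 was the lowest of the classical strains. The same order held for the KK/HIJ arrays in the MAS5 table, at 11.3 and 10.8 for 1417110_at, against a classical median of 10.0, and 9.94 and 10.7 for 1417111_at, against 11.2. Over 17 inbred strains the 2 probe sets correlated at r = 0.0582, and over 68 BXD strains at r = 0.439.

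**Figure D4:**
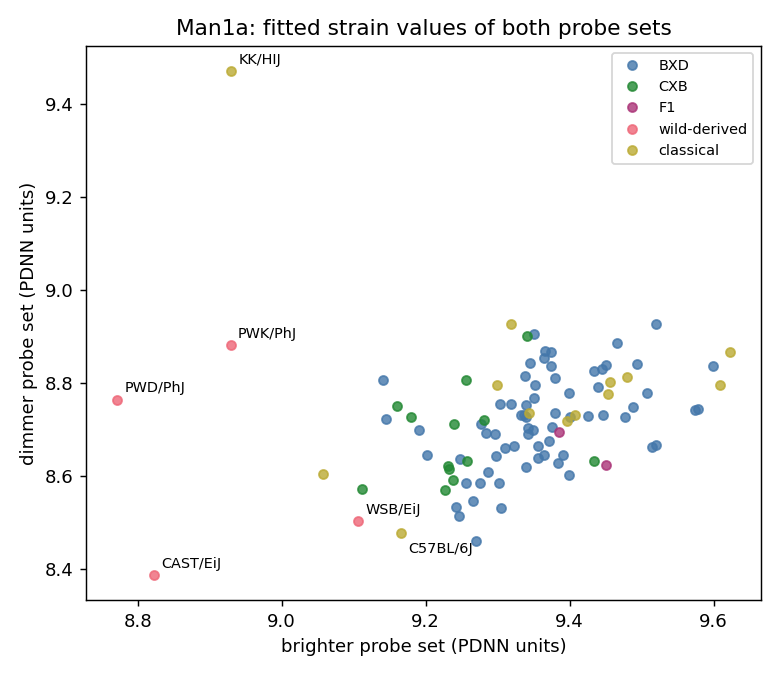
Fitted values of the 100 strains for the brighter (x axis) and the dimmer (y axis) Man1a probe set, in PDNN units and coloured by panel. KK/HIJ stands alone at the top with 9.47 on the y axis and 8.93 on the x axis, and the wild-derived strains lie at the left.

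The brightest probe sets of the 8 genes formed 28 pairs, whose fitted values over 68 BXD strains correlated at a median r of 0.167. Among CA2 and CA3 markers, Rgs14 with Amigo2 was at r = 0.620, Rgs14 with Bok at 0.595 and Amigo2 with Bok at 0.372. The CA1 marker Fibcd1 was at 0.424 with Bok, 0.338 with Rgs14 and 0.0109 with Amigo2, and Man1a was at 0.422 with Amigo2. The CA1 markers Wfs1 and Mpped1 correlated at 0.450, while Wfs1 with Fibcd1 was at -0.111 and Wfs1 with Rgs14 at -0.106. Man1a, although a CA1 marker, went with Rgs14 (0.489) and Bok (0.448) and not with Mpped1 (0.0343).

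Some pairs also moved together among arrays of a strain. Over 133 BXD arrays, deviations from the fit correlated at 0.769 for Rgs14 with Bok, 0.542 for Amigo2 with Bok, 0.467 for Fibcd1 with Rgs14 and 0.457 for Wfs1 with Mpped1. Man1a with Mpped1 reached 0.383 here, while Wfs1 with Fibcd1 was at -0.207, and the median of the 28 pairs was 0.1055. Deviations are taken around each strain's own fitted value, so arrays of a strain mirror each other. The 133 points are therefore not independent. Points in these correlations share dissection, RNA and array, and the values are descriptions.

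**Figure D5:**
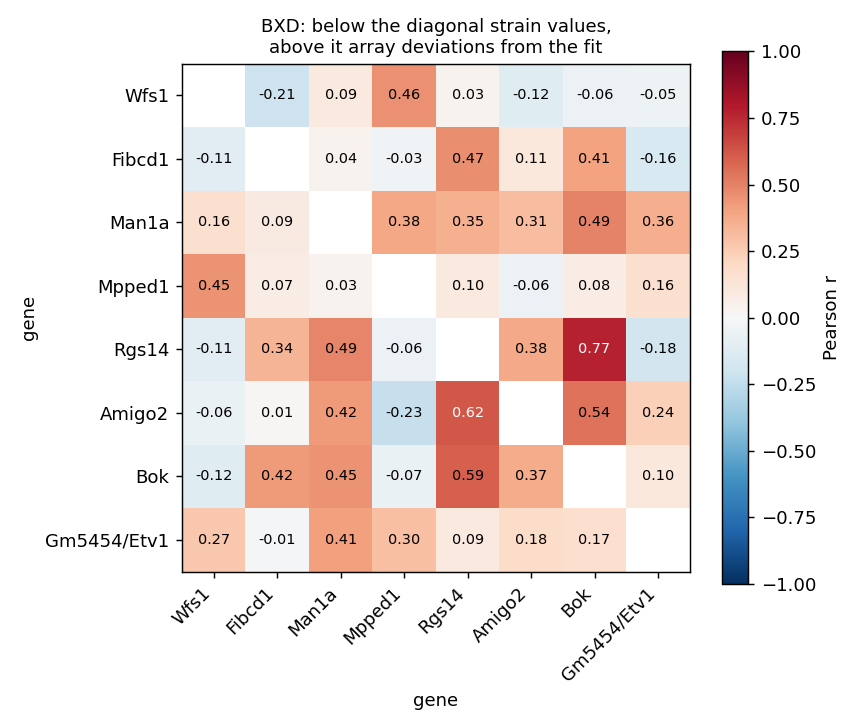
Pearson r between the brightest probe sets of the 8 genes (both axes), below the diagonal over 68 fitted BXD strain values and above it over 133 array deviations from the fit. Rgs14 with Bok is among the highest on both sides, at 0.595 and 0.769.

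The genes most like each member were read from the same 68 BXD strain values. Bok was most like Itpka (r = 0.767), a kinase of inositol trisphosphate, and Lmo1 (0.748). Amigo2 was most like Cotl1 (0.787) and Fkbp5 (0.764), a chaperone of the glucocorticoid receptor. Rgs14 was most like Tafa5 (0.752), Mpped1 like Prkar1b (0.852), a regulatory subunit of protein kinase A, and Man1a like Lsm8 (0.824). Fibcd1 was most like Icam5 (0.702), an adhesion molecule of neurons, Wfs1 like Asap1 (0.613), and Gm5454/Etv1 like Nap1l2 (0.835). Of the 40 genes ranked for the 8 members, Satb1, Olfml2b and Itpka were called across BXD strains, a share near the 6.95% of all probe sets.

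The members were also set beside the mean level of marker lists, over 68 BXD strains. Of the CA1 members, Man1a correlated with the list of other CA1 markers at r = 0.738, against 0.226 for Wfs1, 0.158 for Mpped1 and 0.145 for Fibcd1. With the CA2 list Amigo2 was at 0.668 and Rgs14 at 0.438, and Bok with the CA3 list was at 0.213. The CA2 list holds Sostdc1, whose SE between the BXD parents lay in the range of choroid plexus markers, as given below. The CA2 members also went with other lists. Rgs14 was at 0.475 with the astrocyte list, 0.461 with the CA3 list and 0.412 with the CA1 list. Amigo2 was at 0.513 with the CA3 list, 0.475 with the dentate granule list and 0.421 with the choroid plexus list. With the subiculum and cortex list Rgs14 was at -0.417 and Amigo2 at -0.311. Gm5454/Etv1 correlated with the CA1 list at 0.711. Mpped1 (0.667) and Wfs1 (0.505) went with the subiculum and cortex list. Bok correlated at 0.551 with the oligodendrocyte list, Man1a at 0.550 with the astrocyte list and Fibcd1 at -0.509 with the thalamus list. These points share pools, batches and arrays too, and the amount of neighbouring tissue in each dissection was not measured.

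Further markers of the same fields were counted from lists of other genes. Of 6 CA1 markers, 2 were called across BXD strains, Ccn3 (limma adjusted p = 0.000166) and Gpr161 (3.30e-05). Of 6 CA2 markers, 3 were called, Pcp4, a calmodulin regulator (2.35e-06), Sostdc1 (0.000947) and Cacng5 (0.000278). Of 7 CA3 markers, 2 were called, Iyd (0.000769) and Spock1 (1.49e-07). The median F was 1.23, 1.98 and 1.53 in these lists, and 0.967 over all probe sets, of which 6.95% were called. A median F above that of all probe sets was not particular to the pyramidal fields. The lists of other cell types and regions ran from 1.24 for astrocytes to 2.43 for choroid plexus, with 1.87 for dentate granule neurons. Of 5 choroid plexus markers, 4 were called in the same test. The CA2 list was highest in BXD89 (8.97) and lowest in BXD14 (8.54), where the choroid plexus list was at 9.53 and 8.61. Both BXD14 arrays are headed BXD23. The next lowest strain was BXD19, at 8.56 for the CA2 list and 8.28 for the choroid plexus list. Sostdc1, which is on the CA2 list, had an SE of 0.3377 between the BXD parents. The other CA2 markers had 0.07907 to 0.1324 there, and the choroid plexus markers 0.2083 to 0.7525. The part of choroid plexus in the levels of Sostdc1 and of the CA2 list was not tested. Across CXB strains Iyd and Spock1 were called and no CA1 or CA2 marker was, beside 4.2% of all probe sets. Between the BXD parents Pcp4 was lower in DBA/2J by the same model (-0.617 ± 0.132, SE, limma adjusted p = 0.000624), and of the CA3 markers Nectin3 was higher (0.537 ± 0.137, adjusted p = 0.00532) and Iyd lower (-0.161 ± 0.0499, adjusted p = 0.0281). In that comparison 7.24% of all probe sets were called (2.63% as lower and 4.61% as higher).

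Sex and age called no member. The male minus female difference ranged from -0.0448 for Fibcd1 to 0.0271 for Man1a 1417111_at, with 1 of 12 at an unadjusted p under 0.05 by limma and 0.118% of all probe sets called (0.0444% as higher and 0.0733% as lower in males). The sex difference was not called as unlike between BXD, CXB and inbred panels for any member, with 0 of 12 at an unadjusted p under 0.05 and 0.00222% of all probe sets called. Slopes on age lay between -0.0180 and 0.00635 units per 10 days, with 2 of 12, both of Man1a, at an unadjusted p under 0.05 and 0.00222% of all probe sets called.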

How the data were processed

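Per the file headers, the authors deposited PDNN, MAS5 and RMA scores per probe set and array. The log base is not stated, nor are software versions. PDNN scores were analysed as deposited, and array means ran from 8.06 to 8.10. The series' own value table was identical to them. Groups came from the strain, sex and batch labels. Strain, sex and 7 batches were fitted with limma 3.58.1 in R 4.3.3 to 45037 probe sets, leaving out 64 control probe sets. A technical duplicate of B6D2F1 was averaged with its partner and the array of mixed sex was left out, which gave 199 columns and 92 residual degrees of freedom. Wild-derived and classical strains were compared over fitted strain values. Tests were two-sided and were tested on simulated data. Genes were named from the platform annotation, with all probe sets of the 8 members described, the brightest representing a gene, and the 5 genes of highest r ranked per member. The members and lists were chosen with earlier results of these data known. Precision is limited by how few arrays a strain has.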

Additional observations from a re-analysis of the deposited data

How the results depend on the processing

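Counts below are of 12 member probe sets, each with the share of all probe sets called. Bok across CXB and BXD strains was called in every alternative run but the CXB effect without CXB10, which called 0 (4.36%). Of the called differences, Bok between the BXD parents and Man1a 1417111_at between wild-derived and classical strains kept their sign. For Bok the RMA run does not bear on the BXD parents, since its columns labelled C57BL/6J match BALB/cJ arrays. The strain effects are F-tests and carry no sign. Across inbred strains Wfs1, Bok and both Man1a probe sets were called in all 31 alternatives, and Fibcd1 in 12. In the MAS5 table the BXD effect called 1 (5.02%), the inbred effect 6 (29.7%), DBA/2J against C57BL/6J 0 (5.41%) and wild-derived against classical 0 (1.69%). In the RMA table wild-derived against classical called 0 (2.15%), and 0 (1.48%) without its 4 mismatched columns. Of these, 3 are labelled C57BL/6J and match BALB/cJ arrays, so that the parent and hybrid comparisons were not run without them. The remaining column is a BXD14 array that matched a BXD45 array better (r = 0.66) than its own (-0.0531). Quantile normalization called 1 (1.41%) between BALB/cByJ and C57BL/6ByJ and 2 (3.74%) between wild-derived and classical strains. Without the batch term the BXD effect called 1 (5.98%) and DBA/2J against C57BL/6J 0 (3.29%). Without arrays of high outlier share, wild-derived against classical called 0 (1.41%), and with the β-actin ratio as a covariate 2 (10.7%). With the spread from a panel's arrays alone, the BXD effect called 5 (8.38%) and the inbred effect 5 (10.7%), and with that of inbred and F1 arrays DBA/2J against C57BL/6J called 0 (2.14%). The cause of these changes was not tested. Leaving out single arrays gave 0 to 1 for DBA/2J against C57BL/6J (0 without C57BL/6J replicate 2, 4.18%, or DBA/2J replicate 2, 4.74%), and leaving out a wild-derived strain gave 0 for CAST/EiJ (1.69%) and PWD/PhJ (0.537%) and 2 for PWK/PhJ (6.2%) and WSB/EiJ (7.33%). Without arrays whose headers differ from the labels, no count moved by over 1.5 times. The mismatch, header, β-actin, CXB10 and panel-spread settings were chosen after seeing the data. No paired analysis was possible because replicate numbers were given in accession order.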
